A study of Homo sapiens with 36 samples.

Results

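Aminoacyl-tRNA synthetases are the enzymes that join each amino acid to its own tRNA, so that the ribosome receives the residue its codon calls for. Human cells keep a set that works in the cytosol and a separate, nuclear-encoded set that is imported into mitochondria, while GARS1 and KARS1 each serve both compartments. Several cytosolic synthetases are held together in a large complex by the scaffold proteins AIMP1, AIMP2 and EEF1E1. When amino acids run short or the endoplasmic reticulum is stressed, translation of the transcription factor ATF4 increases, and ATF4 raises many of the cytosolic synthetase genes. The mRNA count table held 37 synthetase genes among its 60591 rows, found by symbol: a letter followed by ARS with no number, 1 or 2, or EPRS, EPRS1, FARSA or FARSB. Of these, 20 were cytosolic and 17 mitochondrial, the latter being those whose symbol ends in 2. The symbols fix the membership and no measured value was used to choose it.

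The mRNA of Caco-2 and HT-29, established human colorectal cancer cell lines, was sequenced after exposure to activators of the hypoxia-inducible factor (HIF) pathway. Caco-2 cells had been kept for 21 days under conditions in which they take on features of absorptive enterocytes, and no such period is given for HT-29, so that line and culture state cannot be told apart. For 24 h the cells received cobalt chloride (CoCl2) at 300 µM, the oxyquinoline derivative 4896-3212 (OD) at 5 µM, or vehicle alone as the control, with 3 libraries in each of the 6 groups. OD and control media held 0.5 µl of DMSO or DMSO stock per ml, whereas CoCl2 was dissolved in water. The study's methods, which describe Caco-2, state that its CoCl2 medium received DMSO too, a step that the labels do not list. CoCl2 and hydroxyquinoline compounds are known to inhibit the prolyl hydroxylases that mark HIF for destruction. Each line is a single line, and p-values describe the spread between the 3 samples of a group, which the series calls biological replicates.

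Libraries held from 12925719 to 22332639 counts. Cytosolic synthetases took from 0.249 to 0.752% of these counts and mitochondrial synthetases from 0.0399 to 0.097%. Levels below are counts per 1000000 (CPM) after library sizes within a line were scaled by trimmed means of M values (TMM), given as mean ± SD over 3 libraries. A gene passed the test when its false discovery rate (FDR) in the edgeR quasi-likelihood F test, adjusted over all genes tested, was under 0.05. The TMM factors averaged 1.12 in control and 0.894 in CoCl2 libraries of Caco-2, and 1.19 and 0.77 in HT-29. Scaling by library size alone moved the all-gene median of the log2 fold change by -0.32 (CoCl2) and -0.16 (OD) in Caco-2, and by -0.63 and -0.14 in HT-29. Every fold change below is on the TMM scale, and the members whose sign this choice turns are named where they are described. In bulk RNA, fewer cells of a type and less RNA per cell cannot be told apart. Summed over 8 epithelial markers, levels ran from 4650.4 to 7984 CPM in Caco-2 and from 5122 to 7077 CPM in HT-29, and 8 enterocyte markers summed to 2933 to 4526 CPM in Caco-2 against 72.8 to 84.4 CPM in HT-29. Most of the Caco-2 sum was APOA1, at 2414 to 4188 CPM, and SI, ALPI, FABP1, APOA4 and ANPEP were also higher in Caco-2. SLC5A1 was higher in HT-29 (47.6 to 61.5 against 1.25 to 4.3 CPM), and FABP2 held at most 1.81 CPM in either line. Summed levels of 12 markers of other cell types were 48.1 to 69.2 CPM in Caco-2 and 1087 to 1216 CPM in HT-29, where LYZ, the lysozyme gene, held 1079.6 to 1206 CPM. Of these 12, PTPRC, CD3E, CDH5, COL1A2 and DCN, markers of blood, endothelial and connective tissue cells, were at or near 0, whereas in Caco-2 COL1A1 held 14.7 to 26.5, LYZ 17 to 27.8, PECAM1 1.57 to 11.5, LUM 2.67 to 5.15 and CD14 2.26 to 4.98 CPM. Their part in the synthetase values was not tested.

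Of the 37 genes, 36 passed the filter on low counts. The exception was VARS2, the mitochondrial valyl-tRNA synthetase, with 0 to 8 counts in a library. Members are not replicates of a condition, and the counts of members below describe the family. Each count of 0 genes given below for a list in edgeR was also 0 at an unadjusted p under 0.05 and in DESeq2, with 1 exception, the complex members higher with OD in HT-29, of which 1 had an unadjusted p under 0.05 and 0 passed in DESeq2.

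Per unit of gene length, cytosolic synthetases stood above mitochondrial ones in both controls. The median over the 20 cytosolic genes was 21.6 RPKM (range 4.72 to 108) in control Caco-2 and 38 RPKM (8.35 to 174) in control HT-29. The median over the 16 mitochondrial genes that passed the filter was 6.8 RPKM (1.07 to 63.9) and 6.42 RPKM (0.869 to 38.2), respectively. In control Caco-2 the highest levels were 108 RPKM for AARS1, which charges alanine, and 85.1 RPKM for QARS1, which charges glutamine. IARS2, the mitochondrial isoleucyl enzyme, followed at 63.9 RPKM and was the only mitochondrial member in this range. In control HT-29 the order was led by GARS1, the glycyl enzyme, at 174 ± 13.9 RPKM. The next 4 genes were TARS1, EPRS1, AARS1 and SARS1 (119 ± 6.75, 109.6 ± 8.91, 106 ± 7.82 and 104 ± 9.62 RPKM). Among these 4 the ranges of mean ± SD overlapped between neighbours in the order. SARS2, the mitochondrial seryl enzyme, was the lowest of the tested genes in both controls. These levels rest on the gene lengths behind the deposited values, which imply 20.7 kb for LARS1, 10.1 kb for CARS1 and 12.4 kb for LARS2 against 2.15 kb for YARS2, and a long summed length lowers the per-length value.

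The clearest contrast within the family lay between the lines. In the controls, 13 cytosolic synthetases were higher and 4 lower in HT-29 than in differentiated Caco-2, against 2 higher and 6 lower among the mitochondrial genes, and the other 3 and 8 did not pass. Of the 17921 genes tested, 79.1% passed, 39.5% were higher and 39.6% lower. The cytosolic shift lay in a list of 13 synthetases known as ATF4 targets (AARS1, CARS1, EPRS1, GARS1, IARS1, LARS1, MARS1, NARS1, SARS1, TARS1, VARS1, WARS1 and YARS1), of which 12 were higher in HT-29, each by more than 2-fold, with a median log2 difference of 2.05 against 0 over all genes. Over all genes, 21.6% were higher and 24.2% lower by more than 2-fold, and 2 synthetases were lower by that much. Among the 7 other cytosolic genes, only HARS1 was higher, and the lower ones were FARSA, FARSB, KARS1 and QARS1, of which FARSA no longer passed with library-size scaling.

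WARS1, the tryptophanyl enzyme, which interferon also induces in many cells, stood furthest apart. The control libraries held 30.2, 28.8 and 29.1 CPM in Caco-2 and 172, 199 and 224 CPM in HT-29, each scaled within its line. In the fit of all 18 libraries the log2 difference was 2.85 ± 0.09 SE (FDR = 2.41e-25). CARS1, the cysteinyl enzyme, averaged 46.6 ± 1.26 and 238 ± 20.7 CPM (2.45 ± 0.09, FDR = 1.71e-23). GARS1, whose mutations cause a peripheral neuropathy, averaged 137 ± 5.45 and 674 ± 54.3 CPM, a log2 difference of 2.38 ± 0.07. IARS1, TARS1, SARS1, YARS1 and MARS1, which charge isoleucine, threonine, serine, tyrosine and methionine, were higher by 2.36, 2.33, 2.11, 2.05 and 1.61 on the log2 scale. AARS1 was the exception on the list, with 484, 479 and 458 CPM in Caco-2 and 423, 467 and 489.8 CPM in HT-29. Its difference in the fit of all 18 libraries was 0.05 ± 0.06 (95% interval -0.08 to 0.17, FDR = 0.492).

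The largest differences in the other direction belonged to QARS1, at 392 ± 10.7 CPM in Caco-2 and 164 ± 2.4 CPM in HT-29 (log2 difference -1.16 ± 0.06, FDR = 6.08e-19). LARS2, the mitochondrial leucyl enzyme, held 49.4, 51.8 and 54.4 CPM in Caco-2 and 21.8, 22.4 and 22.2 CPM in HT-29 (-1.14 ± 0.07). RARS2, IARS2, NARS2, CARS2 and FARSB were lower in HT-29 by -1.0, -0.67, -0.57, -0.52 and -0.40, in that order. WARS2 and MARS2 were the mitochondrial genes that were higher, by 0.47 and 0.42. For each of the 13 amino acids whose tested genes pair by symbol (ending in 1 and in 2), the cytosolic gene's difference lay above the mitochondrial. The median gap was 2.05, a comparison that scaling does not touch. Phenylalanine, glutamate and proline do not pair this way. With library-size scaling FARSA (-0.19) and FARSB (-0.40) lay below FARS2 (0.15), and EPRS1 (1.30) lay above EARS2 (0) and PARS2 (-0.21).

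**Figure D1:**
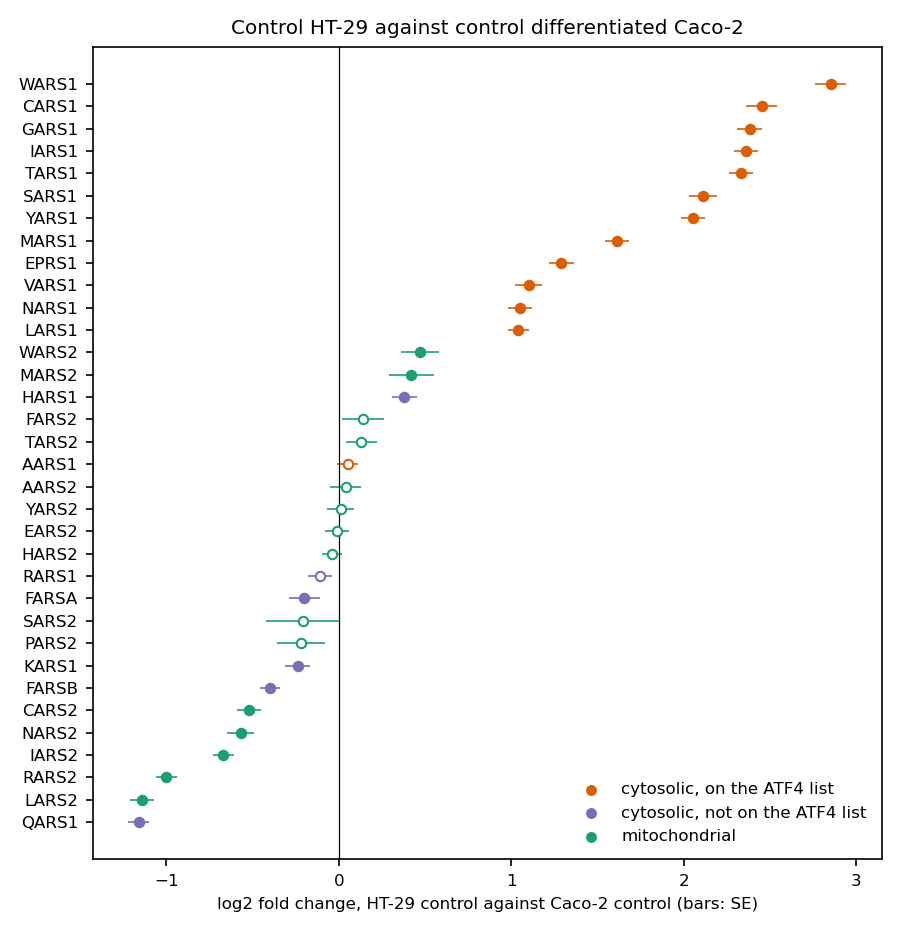
Log2 difference between control HT-29 and control differentiated Caco-2 for 34 synthetases, colored by list, with bars for the standard error, where filled points passed an FDR of 0.05 and open points did not. Members of the ATF4 list fill the right side, with WARS1 at 2.85, except AARS1 near 0, and LARS2 and QARS1 lie furthest left.

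The promoter sequence of the ATF4 list is shown because its members differed together between the lines. RefSeq (GRCh38.p14) windows of 250 bases before and 50 from each gene's start were at hand for 30 of the 37 members. TGATGNAA, a core form of the C/EBP-ATF response element bound by ATF4, was searched on both strands. It was found in 7 of the 10 ATF4-list members with a window, in 0 of the 6 other cytosolic members, in 1 of the 14 mitochondrial members (YARS2) and in 4.46% of all 27305 genes with a window. A match describes letters and not binding, and the list was drawn from known ATF4 targets. In the stretches below, written 5′ to 3′ on the gene's strand, capitals mark the match, which reads TTNCATCA where it lies on the opposite strand.
AARS1 (chr16:70289674-70289733, minus strand): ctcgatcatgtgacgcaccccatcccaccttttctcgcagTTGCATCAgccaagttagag
CARS1 (chr11:3057418-3057465, minus strand): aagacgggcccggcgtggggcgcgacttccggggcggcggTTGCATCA
GARS1 (chr7:30594805-30594864, plus strand): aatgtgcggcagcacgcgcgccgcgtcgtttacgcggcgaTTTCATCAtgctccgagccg
IARS1 (chr9:92293698-92293750, minus strand): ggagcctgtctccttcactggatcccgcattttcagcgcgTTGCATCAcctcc
MARS1 (chr12:57488024-57488071, plus strand): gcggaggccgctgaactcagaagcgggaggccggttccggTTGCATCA
NARS1 (chr18:57621815-57621862, minus strand): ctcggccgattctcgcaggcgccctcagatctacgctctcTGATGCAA
TARS1 (chr5:33440927-33440974, plus strand): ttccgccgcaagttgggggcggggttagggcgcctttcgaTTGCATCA

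In 5 of these 7 stretches the match reads TTGCATCA, and in NARS1 it reads TGATGCAA, the same letters on the other strand. AARS1, with a match, did not differ between the controls, while EPRS1, SARS1 and WARS1, in whose windows these letters were not found, were higher in HT-29. The core of the hypoxia response element, ACGTG, also searched on both strands, was found in 9 of the 30 members with a window and in 24.9% of all genes with a window.

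Other genes of the amino acid response stood beside the ATF4 list. Of 13 such genes, 10 were higher and 2 lower in control HT-29, among them asparagine synthetase ASNS, higher by 4.85 ± 0.19, and the serine synthesis gene PSAT1, higher by 3.92 ± 0.08, whereas ATF4 mRNA itself differed by 0.33 ± 0.06. All 7 amino acid transporters listed were higher, the cystine carrier SLC7A11 by 4.66. Over all genes 39.5% were higher and 39.6% lower. XPOT, the exportin that carries tRNAs out of the nucleus, was higher by 2.18 ± 0.08.

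CoCl2 changed most synthetases in Caco-2 and lowered more than it raised. Among the cytosolic genes 7 rose, 11 fell and 2 did not pass, and among the mitochondrial genes 3 rose, 10 fell and 3 did not pass. Of the 16034 genes tested 64.7% passed, 31.6% higher and 33.1% lower, and the median was -0.24 in either compartment against -0.03 over all genes. With a change over 2-fold required as well as the FDR (the 2-fold limit), 0 synthetases were higher and 5 lower, against 9.13 and 14.2% of all genes. Treated and control libraries did not overlap for 11 synthetases that lay higher and 21 that lay lower, against 33.7 and 35.2% of all genes. The split ran through the cytosolic set. The ATF4 list had 2 genes higher and 9 lower with a median of -0.34, and the 7 other cytosolic genes had 5 higher and 2 lower with a median of 0.39.

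VARS1, the cytosolic valyl enzyme, fell from 52.9, 54.1 and 56.1 CPM to 25.6, 18.1 and 20.3 CPM with CoCl2 (log2 fold change -1.36 ± 0.11, FDR = 6.04e-11). AARS2, the mitochondrial alanyl enzyme, held 27.6, 26.1 and 26.1 CPM in the control and 14, 10.2 and 10.7 CPM with CoCl2 (-1.20 ± 0.12, FDR = 4.14e-09). In both genes the CoCl2 libraries all lay under the lowest control library. PARS2, MARS2 and MARS1, which charge mitochondrial proline, mitochondrial methionine and cytosolic methionine, fell by 1.05, 1.01 and 1.00 on the log2 scale. TARS2, IARS1, AARS1 and FARS2 fell by 0.78, 0.69, 0.58 and 0.56.

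HARS1, the cytosolic histidyl enzyme, rose most and is described with its neighbour below. WARS2 followed, from 23.7, 23.5 and 22.4 CPM to 30.7, 37.9 and 37.4 CPM (0.61 ± 0.12, FDR = 0.000151). KARS1 and RARS1, both subunits of the multisynthetase complex, had log2 fold changes of 0.45 and 0.39 on the TMM scale. Those of HARS2, GARS1, RARS2, QARS1 and EPRS1 were 0.34, 0.32, 0.30, 0.27 and 0.25, and with library-size scaling GARS1, RARS2, QARS1 and EPRS1 turned to -0.01, -0.02, -0.05 and -0.07. With that scaling HARS1 alone of the cytosolic genes, and none of the mitochondrial genes, passed as higher in edgeR.

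**Figure D2:**
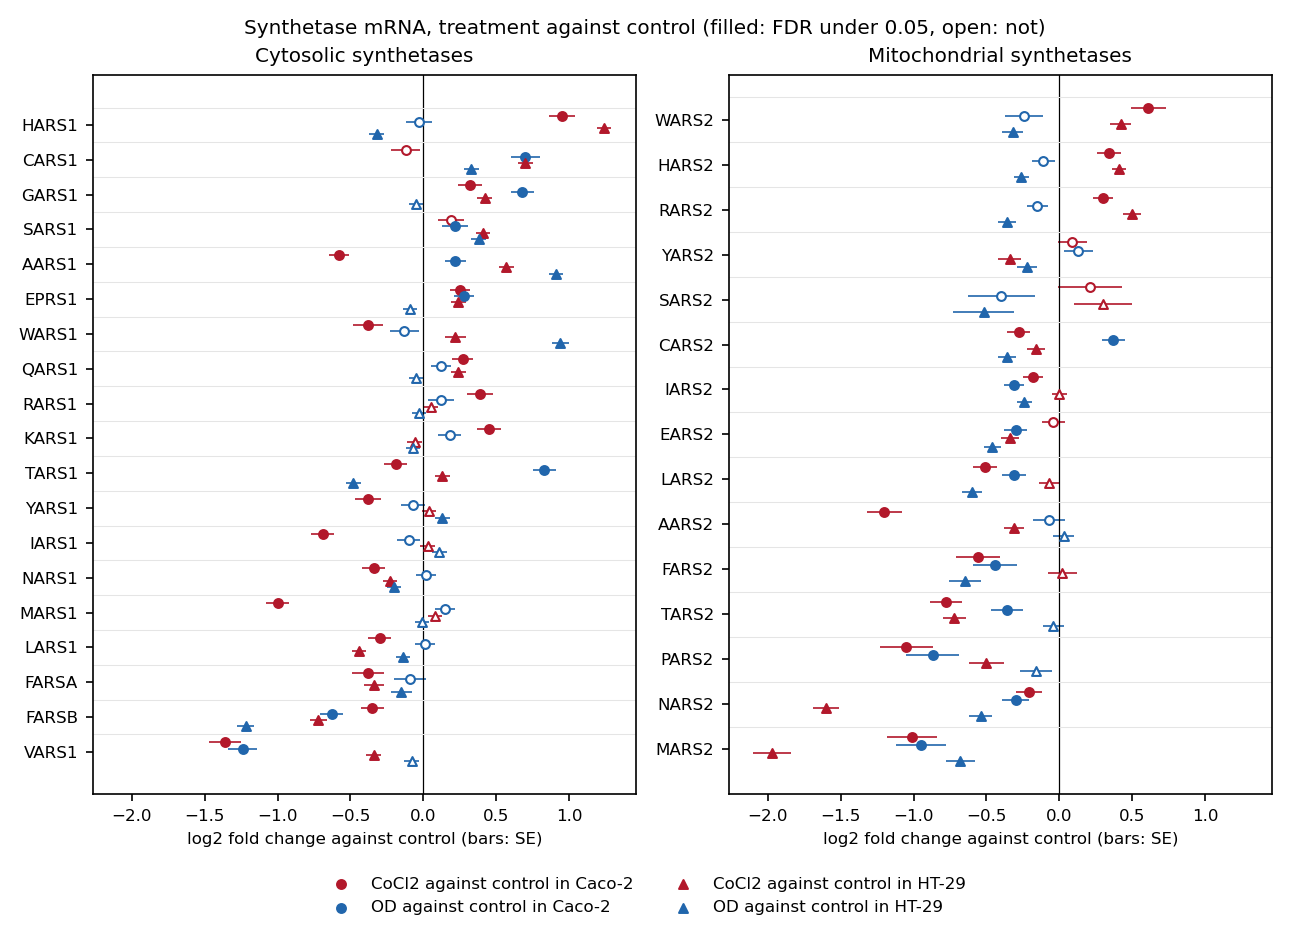
Log2 fold change against the control of the same line for 19 cytosolic and 15 mitochondrial synthetases, with red for CoCl2, blue for OD, circles for Caco-2, triangles for HT-29 and bars for the standard error, where filled symbols passed an FDR of 0.05 and open symbols did not. MARS2 and NARS2 lie left of 0 in all 4 comparisons, and HARS1 lies at 0.95 and 1.24 with CoCl2 and at -0.03 and -0.32 with OD.

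OD in Caco-2 gave a different balance. Of the cytosolic genes 7 rose, 2 fell and 11 did not pass, and of the mitochondrial genes 1 rose, 9 fell and 6 did not pass. Over all genes 50.4% passed, 25.7% higher and 24.7% lower, and the medians were 0.12 for cytosolic and -0.31 for mitochondrial genes against -0.02 for all. Past the 2-fold limit 0 were higher and 1 lower, against 4.43 and 7.27% of all genes, and libraries did not overlap for 12 genes that lay higher and 15 that lay lower, against 29.6 and 29.8%. The 15 include VARS2, which did not pass the filter, whereas the shares cover tested genes only. Library-size scaling turned no sign among the synthetases that passed here, but left 4 cytosolic genes higher and 5 lower. TARS1, the threonyl enzyme, rose most, from 140.2, 134 and 142 CPM to 274, 237 and 229.7 CPM (0.83 ± 0.08, FDR = 2.77e-09). CARS1 and GARS1 rose by 0.70 and 0.68, and the treated ranges of these genes lay above the control ranges. EPRS1, which charges glutamate and proline, and AARS1 rose by 0.28 and 0.22, and CARS2 was the only mitochondrial gene to rise, by 0.37. SARS1 passed at 0.22 ± 0.09 with FDR = 0.0392, and lost the call without any 1 of the control libraries (0.21, 0.24 and 0.21) and without OD replicate 1 (0.11). AARS1 lost its call without control replicate 3 (0.20).

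VARS1 fell with OD as it did with CoCl2, to 24, 22.2 and 23.1 CPM (-1.24 ± 0.10, FDR = 7.37e-10), and lay further down than any other synthetase in this comparison. MARS2 fell from 16.4, 12.3 and 14.2 CPM to 5.38, 9.37 and 7.41 CPM (-0.95 ± 0.17, FDR = 5.11e-05). PARS2 fell to 4.24, 6.07 and 7.76 CPM (-0.87 ± 0.18), with no treated library of MARS2 or PARS2 inside the control range. FARSB, the beta subunit of the cytosolic phenylalanyl enzyme, fell by 0.63. FARS2, TARS2, LARS2, IARS2, NARS2 and EARS2, all mitochondrial, fell by 0.44, 0.36, 0.31, 0.31, 0.30 and 0.30, and FARS2 lost its call without control replicate 2 (-0.41).

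In HT-29, CoCl2 gave 10 cytosolic genes higher, 5 lower and 5 not passing, and 3 mitochondrial genes higher, 9 lower and 4 not passing. The background was high, with 82.8% of the 15812 genes tested passing, 40.7% higher and 42.2% lower. The medians were 0.10 for cytosolic and -0.24 for mitochondrial genes against -0.03 for all genes. Past the 2-fold limit 1 was higher and 3 lower, against 17.4 and 23.9% of all genes, and libraries did not overlap for 12 synthetases that lay higher and 15 that lay lower, against 40.5 and 42.6%. This comparison depended most on scaling. Library-size scaling left HARS1 as the only synthetase higher, with 17 cytosolic and 15 mitochondrial genes lower, and the order of the members is therefore firmer than the sign of the small changes.

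MARS2 showed the largest fall. It held 15.4, 19 and 19.6 CPM in the control and 4.03, 4.29 and 5.68 CPM with CoCl2 (-1.97 ± 0.13, FDR = 7.24e-14). NARS2, the mitochondrial asparaginyl enzyme, fell from 26.5, 28.1 and 30 CPM to 9.93, 9.47 and 8.64 CPM (-1.60 ± 0.09, FDR = 6.75e-15). The groups of both genes were far apart. TARS2 and FARSB fell by 0.72 each, PARS2 by 0.50, LARS1 by 0.44, VARS1, EARS2 and YARS2 by 0.34 each. CARS1 went from 215, 245 and 254 CPM to 385, 398 and 378 CPM (0.70 ± 0.05, FDR = 4.96e-12), a log2 fold change of 0.07 with library-size scaling. The log2 fold changes of AARS1, RARS2, GARS1, WARS2, SARS1, HARS2 and QARS1 were 0.57, 0.50, 0.42, 0.42, 0.41, 0.41 and 0.24 on the TMM scale, and each turned below 0 with library-size scaling.

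OD in HT-29 lowered mitochondrial synthetases without raising any: 0 rose, 13 fell and 3 did not pass. Of the cytosolic genes 5 rose, 7 fell and 8 did not pass. Over all genes 68.8% passed, 34.7% higher and 34% lower, and the medians were -0.36 for mitochondrial and -0.06 for cytosolic genes against 0.01 for all genes. Past the 2-fold limit 0 were higher and 1 lower, against 9.5 and 7.57% of all genes, and libraries did not overlap for 5 synthetases that lay higher and 19 that lay lower, against 35.6 and 35.5%. Library-size scaling left 4 cytosolic genes higher and 14 lower. The rise was led by WARS1, from 172, 199 and 224 CPM to 389, 379 and 379 CPM (0.94 ± 0.06, FDR = 8.16e-13), and by AARS1, from 423, 467 and 489.8 CPM to 859.7, 850.2 and 891 CPM (0.91 ± 0.05, FDR = 6.47e-15). Neither gene's ranges overlapped. SARS1 and CARS1 rose by 0.38 and 0.33, and YARS1 by 0.13, which went to 0 with library-size scaling and lost its call without control replicate 1 or 2 or OD replicate 1 (0.08, 0.13 and 0.12).

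FARSB showed the largest fall with OD in HT-29, from 63.4, 62.9 and 68.3 CPM to 27.4, 28.8 and 27.7 CPM (-1.22 ± 0.06, FDR = 2.67e-16). MARS2 fell to 10.6, 11.7 and 11.8 CPM (-0.68 ± 0.10), and for both genes the treated libraries lay under the controls. FARS2, LARS2, NARS2, SARS2, TARS1, EARS2 and CARS2 fell by 0.65, 0.60, 0.54, 0.52, 0.48, 0.46 and 0.36. The SARS2 call was lost without control replicate 1 or 3 or OD replicate 1 or 2, with values of -0.46, -0.47, -0.37 and -0.44 and FDR up to 0.154 in edgeR.

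FARSA and FARSB encode the alpha and beta subunits that assemble into cytosolic phenylalanyl-tRNA synthetase. FARSB fell in all 4 comparisons with control, by 0.35 and 0.63 in Caco-2 and by 0.72 and 1.22 in HT-29, CoCl2 first. FARSA differed by -0.38, -0.09, -0.34 and -0.15, and did not pass for OD in Caco-2 (95% interval -0.30 to 0.12). FARSB thus had the lower value of the pair in 3 of the 4 comparisons, and with CoCl2 in Caco-2 the values -0.35 ± 0.08 and -0.38 ± 0.11 lay within their errors.

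**Figure D3:**
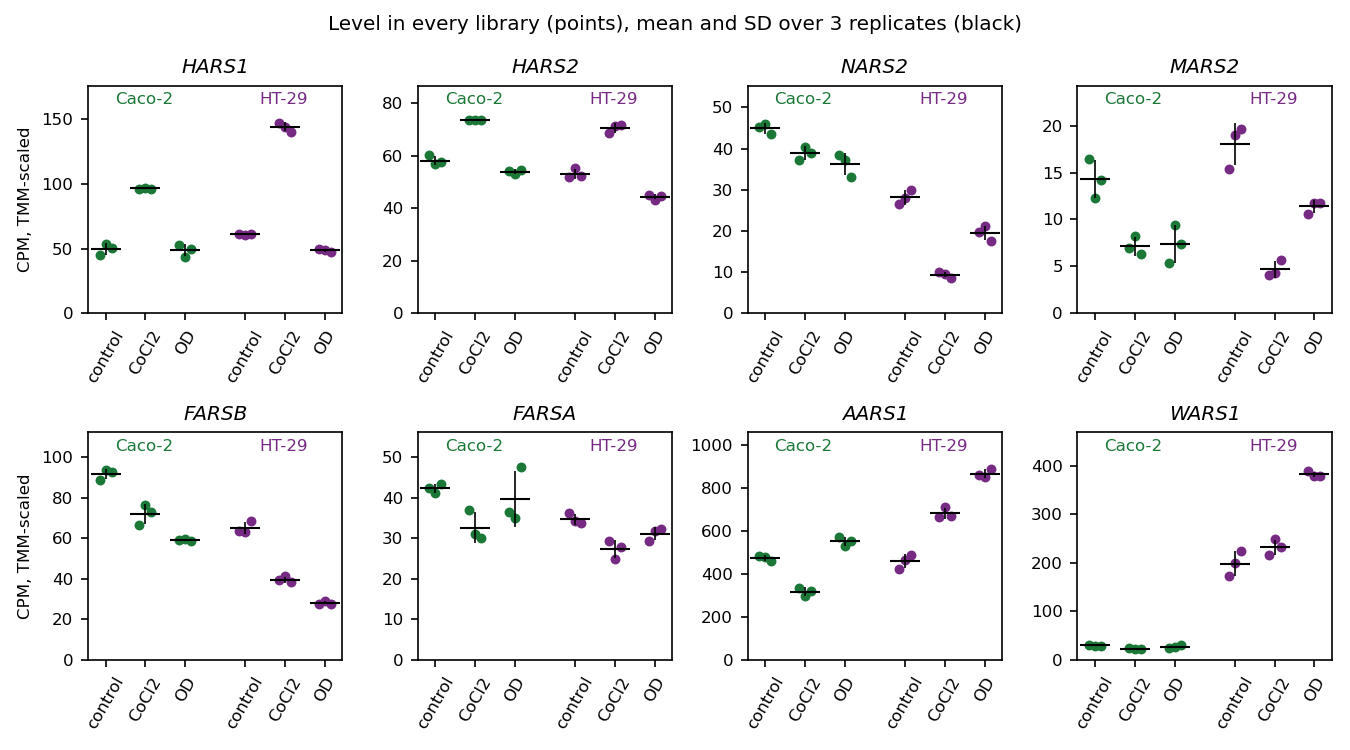
Level of 8 synthetases in each of the 18 libraries, in CPM on a linear axis from 0, with a panel for each gene, colored points for libraries and black bars for the mean and SD of the 3 libraries of a group. HARS1 lies higher in both CoCl2 groups, at 96.1 to 96.7 CPM in Caco-2 and 140.4 to 147 CPM in HT-29, and NARS2 and MARS2 lie lower in every treated group than in the control of its line.

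The histidyl genes lie head to head on chromosome 5. In RefSeq the HARS1 start at 140691370 on the minus strand and the HARS2 start at 140691455 on the plus strand are separated by 84 bases with a GC content of 59.5%. These bases are shown because the 2 genes rose together with CoCl2 on the TMM scale. With library-size scaling HARS2 went to 0.02 in Caco-2, where it did not pass, and turned to -0.22 in HT-29. The stretch is written on the plus strand of GRCh38.p14.
HARS1 and HARS2 (chr5:140691371-140691454, plus strand): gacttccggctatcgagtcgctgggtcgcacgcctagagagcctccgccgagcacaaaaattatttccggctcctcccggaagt

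HARS1 held 45.1, 53.8 and 50.5 CPM in control Caco-2, 96.3, 96.7 and 96.1 CPM with CoCl2 and 52.5, 43.7 and 49.9 CPM with OD. In HT-29 the values were 61.2, 60.4 and 61.3 CPM, then 147, 144 and 140.4 CPM, then 50, 48.7 and 47.6 CPM. In both lines the CoCl2 libraries stood apart above all others. The log2 fold change with CoCl2 was 0.95 ± 0.09 (FDR = 7.96e-10) in Caco-2 and 1.24 ± 0.05 (FDR = 8.64e-19) in HT-29, and 0.63 and 0.60 with library-size scaling. With OD it was -0.03 ± 0.09 (FDR = 0.784) in Caco-2 and -0.32 ± 0.05 (FDR = 2.78e-06) in HT-29. HARS2, the mitochondrial partner, had smaller values of the same sign, with 0.34 ± 0.08 and 0.41 ± 0.05 for CoCl2, and -0.11 ± 0.08 and -0.26 ± 0.05 for OD. The annotated exons of HARS1 also overlap DND1 on the same strand, at 0 counts in every library, and WDR55 on the other strand. WDR55 differed by 0.38 and 0.03 with CoCl2 in Caco-2 and HT-29, and HARS1 and HARS2 exons overlap each other. HARS2 exons also overlap ZMAT2 on the same strand, which had the signs of HARS2. ZMAT2 differed by 0.14 and 0.23 with CoCl2 and by -0.19 and -0.16 with OD, and its Caco-2 values did not pass. The part of ZMAT2 reads in the HARS2 values was not tested.

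The direct comparison of the compounds at their single doses separated the ATF4 list in Caco-2. CoCl2 libraries were higher than OD libraries in 9 synthetases and lower in 16, with 49.6% of all genes passing, 24.4% higher and 25.2% lower. Past the 2-fold limit 0 were higher and 3 lower, against 5.21 and 6.44% of all genes. On the ATF4 list 0 were higher and 10 lower, with a median log2 difference of -0.36 against -0.01 over all genes. MARS1, AARS2 and TARS1 were lower with CoCl2 than with OD by -1.15 ± 0.08, -1.14 ± 0.12 and -1.02 ± 0.08. CARS1 and AARS1 followed at -0.82 and -0.80, and HARS1 and WARS2 were higher with CoCl2 by 0.99 and 0.84. Doses were 300 µM for CoCl2 and 5 µM for OD, so the comparison is of these treatments and not of equal exposures.

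In HT-29, 16 synthetases were higher with CoCl2 than with OD and 11 lower, which became 5 and 25 with library-size scaling. Over all genes 77.7% passed, 37.1% higher and 40.6% lower. Past the 2-fold limit 1 was higher and 2 lower, against 10.8 and 19.2%. HARS1 was higher by 1.56 ± 0.05 (FDR = 2.02e-20) and RARS2 and WARS2 by 0.86 and 0.74. MARS2 and NARS2 were lower by -1.29 ± 0.14 and -1.06 ± 0.10, and WARS1 was lower by -0.72 ± 0.06. The ATF4 list had 4 genes higher and 4 lower here. CoCl2 and OD comparisons with the control share their control libraries, so that only the direct comparison sets the treatments against each other.

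The response of some synthetases differed between the lines, as did that of many other genes. For CoCl2, the log2 fold change in HT-29 lay above that in Caco-2 for 10 synthetases and below it for 10, with 49.8% of all genes passing, 21.1 and 28.6% in these classes, and a median of -0.13 over all genes. Past a 2-fold difference 1 lay above and 2 below, against 7.79 and 13.8% of all genes. AARS1 turned from -0.58 in Caco-2 to 0.57 in HT-29, a difference of 1.04 ± 0.09 in the fit of all 18 libraries (FDR = 1.03e-11), although its HT-29 value was -0.07 with library-size scaling. MARS1 fell by 1.00 in Caco-2 and differed by 0.08 ± 0.05 in HT-29 (FDR = 0.194), and the interaction was 0.96 ± 0.10. NARS2 moved the other way, with -0.21 in Caco-2 and -1.60 in HT-29, an interaction of -1.50 ± 0.13 (FDR = 7.2e-12). MARS2, at -1.01 and -1.97, gave an interaction of -1.05 ± 0.23.

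For OD, 5 synthetases had the higher fold change in HT-29 and 13 the lower, with 42.9% of all genes passing, 20.9 and 22% in these classes. Past a 2-fold difference 2 lay above and 1 below, against 8.96 and 6.24%. TARS1 rose by 0.83 in Caco-2 and fell by 0.48 in HT-29, an interaction of -1.33 ± 0.09 (FDR = 1.97e-13). VARS1 fell by 1.24 in Caco-2 and differed by -0.08 ± 0.05 in HT-29 (FDR = 0.181), an interaction of 1.14 ± 0.11. WARS1 differed by -0.13 ± 0.10 in Caco-2 (FDR = 0.29) and rose by 0.94 in HT-29, an interaction of 1.06 ± 0.12. GARS1 rose by 0.68 in Caco-2 and differed by -0.05 in HT-29, with an interaction of -0.75.

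Across both treatments and lines, 0 synthetases rose in all 4 comparisons with control. On the TMM scale SARS1, EPRS1, GARS1 and CARS1 passed as higher in 3 of the 4 and as lower in none, although EPRS1, GARS1 and SARS1 turned sign in a CoCl2 comparison with library-size scaling. MARS2, NARS2 and FARSB fell in all 4 comparisons and kept that sign with library-size scaling. Over all genes, 25.7 to 40.7% passed as higher and 24.7 to 42.2% as lower in a single comparison. The share of all genes that rose or fell in all 4 was not counted, so these patterns describe the members only.

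Summed over each compartment, cytosolic synthetase mRNA was higher relative to mitochondrial in every treated group than in its control. The ratio of summed cytosolic to summed mitochondrial CPM, which needs no scaling between libraries, was 3.37 ± 0.0306 in control Caco-2, 3.80 ± 0.173 under CoCl2 and 4.60 ± 0.226 under OD. The HT-29 ratios, in the same order, were 9.97 ± 0.6, 12.8 ± 0.1 and 13.7 ± 0.321. The control libraries ranged from 3.34 to 3.4 in Caco-2 and from 9.32 to 10.5 in HT-29, and the lowest treated libraries held 3.61 and 12.7, so that no treated library overlapped its control. With 3 libraries against 3, an exact permutation test cannot go below 0.10, and none was run. Over the 13 amino acids whose genes pair by symbol, the cytosolic fold change lay above the mitochondrial in 8 (CoCl2) and 12 (OD) in Caco-2, and in 10 and 11 in HT-29. The median gaps were 0.10, 0.32, 0.83 and 0.47. Phenylalanine, glutamate and proline are not in these counts. With library-size scaling FARS2 had -0.88, -0.60, -0.61 and -0.79 in the same order. FARSB had -0.67, -0.79, -1.35 and -1.35, and FARSA -0.70, -0.25, -0.98 and -0.29. EPRS1 lay above EARS2 and PARS2 in each comparison. In the tryptophanyl pair the mitochondrial gene had the higher value with CoCl2, WARS1 at -0.38 and 0.22 against WARS2 at 0.61 and 0.42, and in HT-29 WARS1 and WARS2 turned to -0.41 and -0.22 with library-size scaling.

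**Figure D4:**
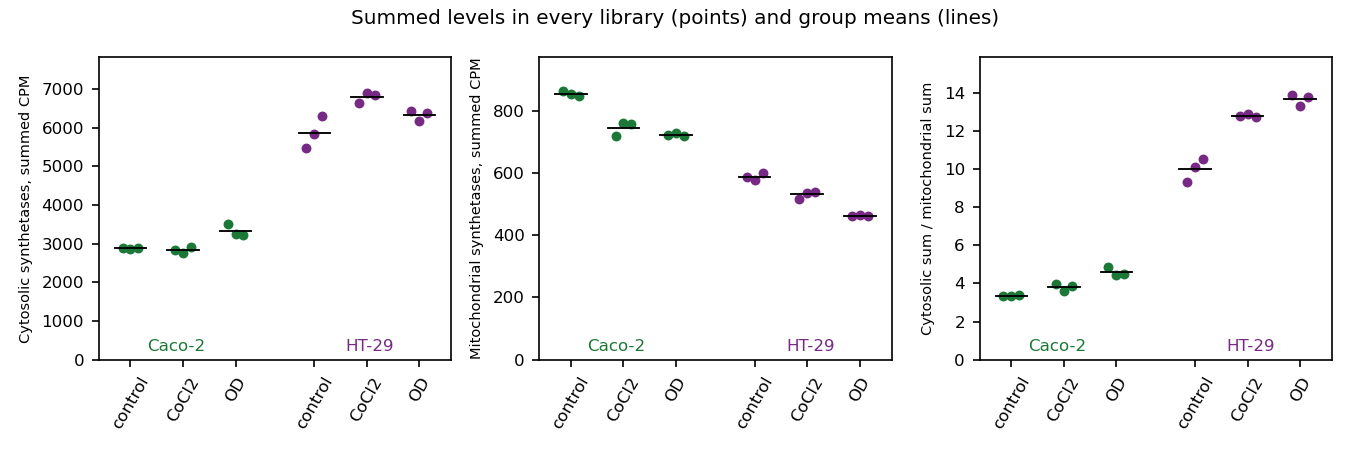
Summed CPM of the cytosolic synthetases, summed CPM of the mitochondrial synthetases and the ratio of these sums in each of the 18 libraries, with points for libraries and lines for group means. In the panel of the ratio every CoCl2 and OD library lies above the 3 control libraries of its line, and HT-29 lies above Caco-2 throughout.

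Of the 8 catalytic members of the multisynthetase complex, 5 rose and 3 fell with CoCl2 in Caco-2, where QARS1 and EPRS1 turned sign with library-size scaling and 31.6% of all genes were higher and 33.1% lower. With OD 2 rose and 0 fell, against 25.7 and 24.7%. In HT-29, 3 rose and 1 fell with CoCl2, against 40.7 and 42.2%, where EPRS1 and QARS1 turned sign with library-size scaling, and 0 rose and 2 fell with OD, against 34.7 and 34%.

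The scaffolds of the complex all fell. AIMP1, AIMP2 and EEF1E1 passed as lower in each of the 4 comparisons with control, with library-size scaling as well. For this and the counts below, the shares of all genes are given for CoCl2 and OD in Caco-2, then in HT-29. They were 31.6, 25.7, 40.7 and 34.7% higher, and 33.1, 24.7, 42.2 and 34% lower. AIMP2 went from 13, 14.6 and 13.9 CPM to 7.5, 6.68 and 6.92 CPM with CoCl2 in Caco-2, and from 26.1, 24 and 24.3 CPM to 9.48, 7.19 and 8.48 CPM in HT-29, with log2 fold changes of -0.98 ± 0.13 and -1.56 ± 0.10. The cytosolic elongation factors, which bring charged tRNA to the ribosome and move it along, had 5 of 5 tested higher with CoCl2 in either line (EEF1B2 and EEF1D turned sign in HT-29 with library-size scaling). EEF1A1, which binds charged tRNA, rose by 0.91 and 1.11 with CoCl2 and by 0.34 and 0.49 with OD. Mitochondrial translation factors had 5 of 8 lower and 1 higher (MRRF, which turned sign with library-size scaling) with CoCl2 in Caco-2, 4 lower and 0 higher with OD, 3 lower and 4 higher with CoCl2 in HT-29, and 7 lower and 0 higher with OD in HT-29. Among the higher ones with CoCl2 in HT-29, GFM1, MTRF1L and TUFM turned sign with library-size scaling. MTIF2, the mitochondrial initiation factor, fell in all 4, by 0.40, 0.57, 0.93 and 0.62.

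The amino acid response genes did not follow the ATF4 list in each comparison. Of 13, 6 rose and 4 fell with CoCl2 in Caco-2, where the list had 2 higher and 9 lower, and 9 rose and 1 fell with OD, where the list had 6 and 1. In HT-29, 9 rose and 4 fell with CoCl2 (ASNS and CEBPB turned sign with library-size scaling) and 7 rose and 5 fell with OD. There the ATF4 list had 7 higher and 3 lower with CoCl2, where 6 of its genes turned sign with library-size scaling. With OD in HT-29 the list had 5 higher and 3 lower. Over all genes, 31.6, 25.7, 40.7 and 34.7% rose and 33.1, 24.7, 42.2 and 34% fell. These shares, for CoCl2 and OD in Caco-2 and then in HT-29, also stand beside the counts that follow. ATF4 mRNA rose by 0.58, 0.84, 0.91 and 0.39. DDIT3, the stress factor CHOP, rose by 0.74, 0.99, 2.40 and 1.23. Of the 7 amino acid transporters, 5 rose and 2 fell with CoCl2 in Caco-2 and 7 rose with OD, and in HT-29 4 rose and 2 fell with CoCl2 while 0 rose and 5 fell with OD. SLC7A5 turned sign with library-size scaling in both CoCl2 comparisons, as SLC1A5 did in Caco-2 and SLC38A2 in HT-29. Of 11 other genes of tRNA charging and export, 2 rose and 3 fell, 0 rose and 5 fell, 3 rose and 6 fell, and 0 rose and 6 fell, in the same order of comparisons. GATC, higher with CoCl2 in Caco-2, and the 3 higher ones with CoCl2 in HT-29 (QRSL1, PSTK and XPOT) turned sign with library-size scaling.

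Some synthetase counts may hold reads of other genes, since the kit kept strand but the strand setting of the counting is not given in the sources used here. In the annotation, 20 members overlap an exon of a gene on the other strand and 8 an exon of a gene on the same strand. MARS1 (chr12:57475445-57517569, plus strand) overlaps DDIT3, which rose while MARS1 fell with CoCl2 in Caco-2. In HT-29 DDIT3 went from 74.1 ± 9.74 to 394 ± 3 CPM with CoCl2, where MARS1 differed by 0.08. The line difference in the CoCl2 response had the same sign in both genes, at 1.56 for DDIT3 and 0.96 for MARS1. EARS2 overlaps GGA2, which rose by 0.78, 0.20, 1.62 and 0.61 with CoCl2 and OD in Caco-2, then in HT-29. Some neighbours rose with their member. ING1, which overlaps CARS2, rose by 0.71 with OD in Caco-2, where CARS2 rose by 0.37. It also rose, by 0.87, 0.69 and 0.33, in the comparisons with control where CARS2 fell. TERF2IP, which overlaps KARS1, rose by 0.52 with CoCl2 in Caco-2, where KARS1 rose by 0.45. The part of such reads in these values was not tested.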

How the data were processed

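Poly(A) RNA of 18 cultures was sequenced as single-end reads by the authors. Per the labels and the study's methods, reads were trimmed with cutadapt 2.10, checked with FastQC 0.11.9 and aligned with STAR 2.7.5b to GRCh38.p13 with the GENCODE 34 annotation. The counting tool is not given in the sources used here. The deposited table holds whole read counts per gene, which were used as deposited. A second deposited table holds log2 values, which recompute from the counts within 0.0257 (Caco-2) and 0.059 (HT-29) as log2 of RPKM plus a pseudocount of 1, with TMM scaling within a line, and served for per-length levels and for limma. No per-sample column was left without a sample.

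Each line was fitted alone (9 libraries, 1 coefficient per group) with edgeR 4.0.16 in R 4.3.3, using TMM, filterByExpr with a minimum count of 10 and the two-sided quasi-likelihood F test with Benjamini-Hochberg adjustment over all genes tested. Differences between lines came from a fit of all 18 libraries. SE is the absolute log2 fold change over the square root of F, and intervals are 95%. Scripts were tested on simulated data with 200 changed genes. Alternatives were library-size scaling, DESeq2 1.42.0, its size factors in edgeR, other filters (none, a minimum count of 50), a 2-fold limit, a replicate block, only the groups compared, limma-trend 3.58.1 with pseudocounts of 1 and 0.1, and leaving out each library. Genes were named by rule: those passing, at most the 10 highest and 10 lowest of a comparison with control and the 8 highest and 8 lowest of others. The overlap of genes was read from GENCODE 44 on GRCh38. The counts, medians and sums cover every member, and 2 members are not reported by name here or drawn as single genes. Members, lists and rules were chosen with earlier results of these data known. Replicate numbers did not pair the libraries. Depth limits genes such as VARS2 and SARS2, and counting error is part of the replicate spread.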

Additional observations from a re-analysis of the deposited data

Results flagged for a closer look

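The response of several synthetases differed between HT-29 and differentiated Caco-2 by an interaction test in the fit of all 18 libraries (edgeR), and each difference is given as the log2 fold change in HT-29 less that in Caco-2. For CoCl2 the 8 highest were AARS1 at 1.04, MARS1 at 0.96, VARS1 at 0.91, AARS2 at 0.78, CARS1 at 0.71, IARS1 at 0.60, WARS1 at 0.50 and FARS2 at 0.47. Among the lowest were NARS2 at -1.50, MARS2 at -1.05, KARS1 at -0.61, YARS2 at -0.53, FARSB at -0.48, RARS1 at -0.45 and EARS2 at -0.41. The median of this difference over all genes was -0.13, and -0.33 with library-size scaling.

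For OD the differences above 0 were VARS1 at 1.14, WARS1 at 1.06, PARS2 at 0.69, AARS1 at 0.68 and TARS2 at 0.30. Among the lowest were TARS1 at -1.33, CARS2 at -0.75, GARS1 at -0.75, FARSB at -0.60, EPRS1 at -0.39, CARS1 at -0.39 and YARS2 at -0.37. TARS2, with FDR = 0.0477, lost its call in 13 of the 18 fits that left out 1 library (FDR up to 0.14 in edgeR). FARS2 in the CoCl2 response, with FDR = 0.0235, lost its call in 5 (FDR up to 0.106 in edgeR). Cell line and culture state cannot be told apart in any of these values.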

How the results depend on the processing

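Counts of synthetases stayed within 1.5 times the reported count under DESeq2, its size factors, both other filters, the replicate block and the removal of any 1 library, and so did the counts within a line under fits of only the groups compared and limma-trend, which were not run between lines. Library-size scaling and the 2-fold limit moved them. With library-size scaling, cytosolic genes higher went to 1 for CoCl2 in either line and 4 for OD in Caco-2, and cytosolic genes lower to 17 for CoCl2 in HT-29, 5 for OD in Caco-2 and 14 for OD in HT-29. Mitochondrial genes higher with CoCl2 went to 0 in either line and lower in HT-29 to 15. For CoCl2 against OD, the number higher went to 4 (Caco-2) and 5 (HT-29), the number lower in HT-29 went to 25, and 16 had the lower CoCl2 response in HT-29.

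These calls of named synthetases turned sign with library-size scaling, a change fixed by the shift of all genes: AARS1 (-0.07), GARS1 (-0.21), HARS2 (-0.22), QARS1 (-0.39), RARS2 (-0.13), SARS1 (-0.22), EPRS1 (-0.39), TARS1 (-0.50), WARS1 (-0.41) and WARS2 (-0.22) for CoCl2 in HT-29, EPRS1 (-0.07), GARS1 (-0.01), QARS1 (-0.05) and RARS2 (-0.02) for CoCl2 in Caco-2, GARS1 (-0.03), EPRS1 (-0.16), QARS1 (-0.20), CARS1 (-0.13), IARS2 (-0.26) and CARS2 (-0.29) for CoCl2 against OD in HT-29, and YARS1 for OD in HT-29 (0).

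With a 2-fold limit, cytosolic genes higher were 0, 0, 1 and 0 and lower 1, 1, 0 and 1 for CoCl2 and OD in Caco-2 and then in HT-29, and mitochondrial genes higher were 0 in each and lower 4, 0, 3 and 0. For CoCl2 against OD, 0 were higher and 3 lower (Caco-2), or 1 and 2 (HT-29). The CoCl2 response had 1 higher and 2 lower, the OD response 2 and 1, and the controls 2 lower.

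Replicate numbers carry no shared origin in the labels, and same-numbered deviations correlated from -0.112 to 0.12 among Caco-2 libraries and from -0.0569 to 0.037 among HT-29 libraries. The replicate block moved calls over all genes from 10370 to 10228 and from 8084 to 7948 for CoCl2 and OD in Caco-2, and from 13097 to 13060 and from 10876 to 10779 in HT-29, and among named synthetases it cost 1 call, TARS2 in the OD response. Leaving out 1 library ended a call in 44 fits of a named gene, for 12 calls, those of AARS1, FARS2 and SARS1 with OD in Caco-2 (FDR for AARS1 up to 0.0634), SARS2 and YARS1 with OD in HT-29, EARS2, KARS1, RARS1 and SARS2 for CoCl2 against OD in Caco-2, PARS2 for it in HT-29, FARS2 in the CoCl2 response and TARS2 in the OD response. The planned comparison of per-length levels with log2 CPM was not run as a setting. Low counts limit SARS2 and PARS2, and 3 libraries a group limit all tests.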
